A study of Mus musculus with 2 samples.

Results

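The miRNA genes of the imprinted Dlk1-Dio3 domain that lie at and between the noncoding RNA genes Rian and Mirg were examined in embryonic mouse midbrain. Members were all GENCODE miRNA genes, on either strand, that start within chr12:109594600-109750000 (mm10) and have a row in the deposited count tables. A total of 45 of 1973 miRNA genes met this rule, 40 on the plus strand and 5 on the minus strand. GENCODE M21 lists 52 miRNA genes in the interval. The remaining 7, Mir136, Mir299a, Mir380, Mir376b, Mir376a, Mir409 and Gm44322, were not analysed here through rows of their own. The samples were midbrains of B6NCrl mouse embryos at day 14.5, with no transgene or treatment named, in 1 group of 2 biological replicates. Each replicate was 1 midbrain, from different collection days, and their labels share pup number 1, pregnancy number 2 and the donor entry, and call the sex pooled. With such labels, the spread between the replicates may be partly technical. Small RNA under 30 nt was sequenced from total RNA, and the libraries held 7302633 and 3966727 sense reads at miRNA genes, so that 1 read was worth 0.137 and 0.252 CPM (counts scaled to the same library total in each replicate).

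The Dlk1-Dio3 domain carries protein-coding genes that are expressed from the paternal chromosome and noncoding RNAs that are expressed from the maternal one. Meg3, Rian and Mirg are noncoding RNAs read from the same strand, and the miRNAs downstream of Meg3 are thought to be cut from a long maternal transcript that runs through them. A miRNA hairpin is cut into a pair of mature arms, named 5p and 3p, and the seed of each arm (bases 2 to 8) guides the choice of target mRNAs. The large group from miR-379 to miR-410 arose by tandem duplication and is best known from neurons, where it is induced by activity through the factor Mef2. The counts used here do not separate maternal from paternal RNA, nor the 5p arm from the 3p arm.

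The mature sequences of the members behind the main results are shown first, because the reads in the tables were counted per hairpin. They are from RefSeq on GRCm38.p6, all on the plus strand of chromosome 12, with the seed in capitals. Of the 45 members, 40 had a mature sequence in that table, and for some of these, Mir487b among them, only a single arm was listed. The first set gives arms of the most abundant hairpins, together with miR-134, a regulator of dendritic spine growth through Limk1, and miR-376a and miR-409, whose reads were found on the strand opposite to the listed entry.
miR-487b-5p: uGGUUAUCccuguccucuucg
miR-382-5p: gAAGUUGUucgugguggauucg
miR-541-5p: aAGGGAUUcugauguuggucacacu
miR-134-5p: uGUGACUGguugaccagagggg
miR-376a-3p: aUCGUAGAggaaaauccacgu
miR-409-3p: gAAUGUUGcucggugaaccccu

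The second set gives arms of different hairpins that are among the closest to each other, or that share a seed. Levels of these related sequences can be compared further on.
miR-379-5p: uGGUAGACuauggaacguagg
miR-1193-5p: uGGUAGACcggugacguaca
miR-411-5p: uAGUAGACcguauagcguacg
miR-379-3p: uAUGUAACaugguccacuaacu
miR-411-3p: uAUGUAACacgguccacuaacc
miR-300-3p: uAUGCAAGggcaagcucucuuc
miR-381-3p: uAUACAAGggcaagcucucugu
miR-154-3p: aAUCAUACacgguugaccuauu
miR-369-3p: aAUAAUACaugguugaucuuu
miR-543-3p: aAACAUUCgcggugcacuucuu
miR-495-3p: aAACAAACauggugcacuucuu
miR-494-5p: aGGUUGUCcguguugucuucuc
miR-410-5p: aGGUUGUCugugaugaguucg
Similar letters did not always fall in the seed: miR-300-3p and miR-381-3p differ within it, and so do miR-543-3p and miR-495-3p.

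The cluster as a whole was an abundant source of the reads counted at miRNA genes in the midbrain. Reads that mapped to several places are outside these counts, as given further on. Its members held 407671 of the sense reads in replicate 1 and 264449 in replicate 2. Replicate 1 thus had 5.58% of its sense reads at members, with a 95% Clopper-Pearson interval (exact) from 5.566 to 5.599. Replicate 2 had 6.67%, with an interval from 6.642 to 6.691, for a mean of 6.12% ± 0.767 (SD, n = 2). The intervals cover counting error only and did not overlap, so the replicates differed by more than counting error. Of the 45 members, 35 were detected, meaning at least 10 sense reads in each replicate, where the share of all 1973 genes detected was 20.1%. The median level on the log2(CPM + 1) scale was 7.27 over all members and 0 over all genes, and 8.16 over the detected members against 6.91 over all 397 detected genes. Of the members, 9 had a mean of at least 1036 CPM, 17 had means between 115 and 969 CPM, 9 detected ones lay under 100 CPM, and 10 were not detected. Reads come from mature molecules of nearly the same length, so levels were compared between genes without division by length. How evenly different sequences were captured in the libraries was not measured, so folds between genes are folds of reads.

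**Figure D1:**
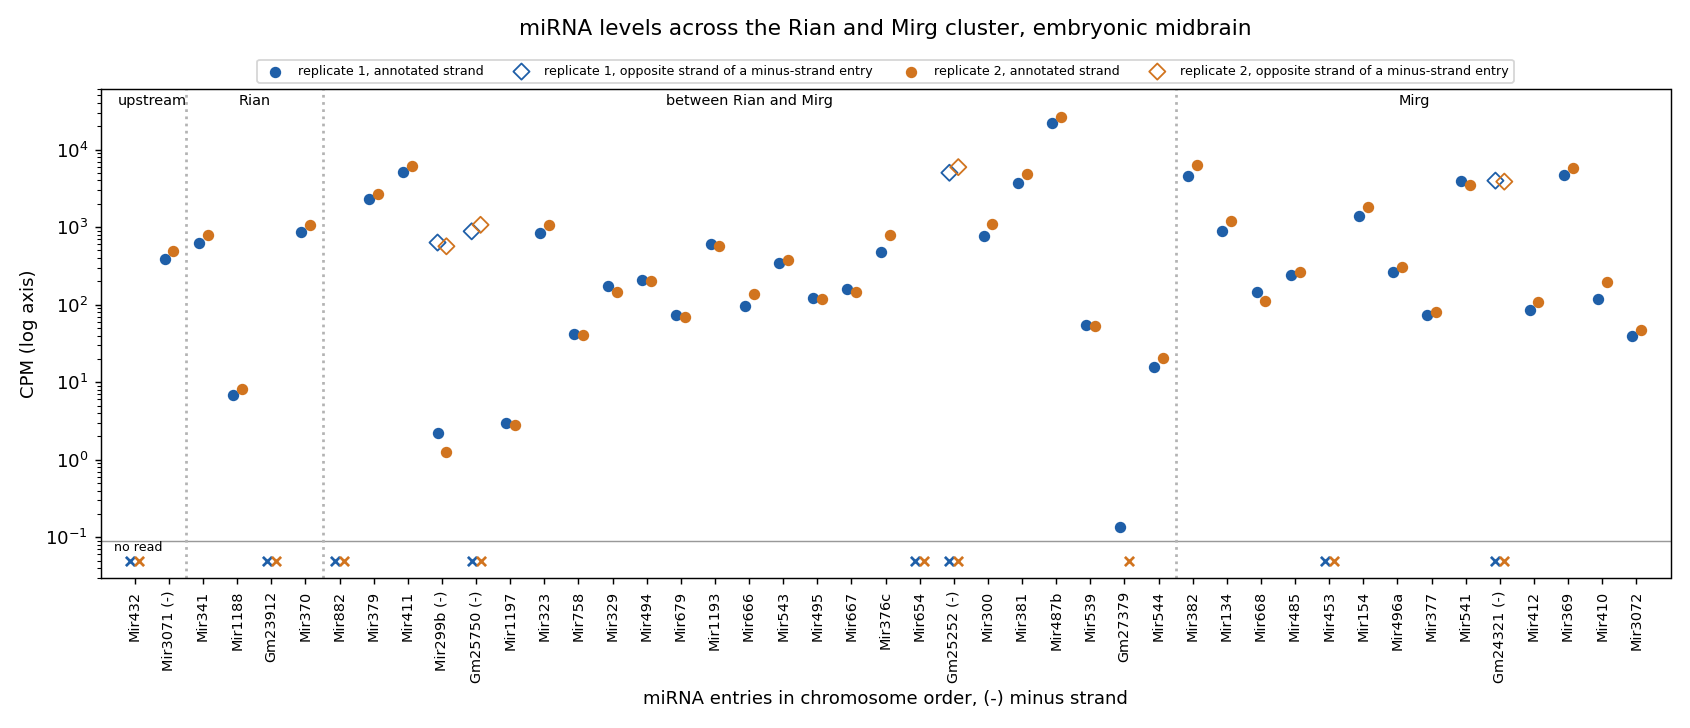
Level of each of the 45 members in CPM (log axis) in chromosome order, with 1 point for each replicate; open diamonds are reads on the strand opposite to a minus-strand entry, and crosses mark no read. Mir487b stands highest in both replicates, and some neighbours along the cluster differ sharply in level.

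Most of the reads came from few hairpins. Mir487b was the most abundant member at 22349 CPM in replicate 1 and 26003 CPM in replicate 2 (24176 ± 2584, SD, n = 2). It alone gave 40.03% and 39.00% of the members' sense reads and stood 4.38-fold and 4.06-fold above the next member in the same library. The first 6 members gave 79.6% and 78.9%, the first 12 gave 92.2% and 92.4%, and 11 members held 90% of the reads in each replicate. The share held by the leading genes therefore varied little, with a mean of 39.5% ± 0.728 for the first and 92.3% ± 0.139 for the first 12 (SD, n = 2). From Mir487b down to the lowest detected member the levels spanned 7419-fold in replicate 1 and 9377-fold in replicate 2. Shares and ranks here are of sense reads. They leave out opposite-strand reads of minus-strand entries, which were 15.9% and 14.6% of the members' reads once added.

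**Figure D2:**
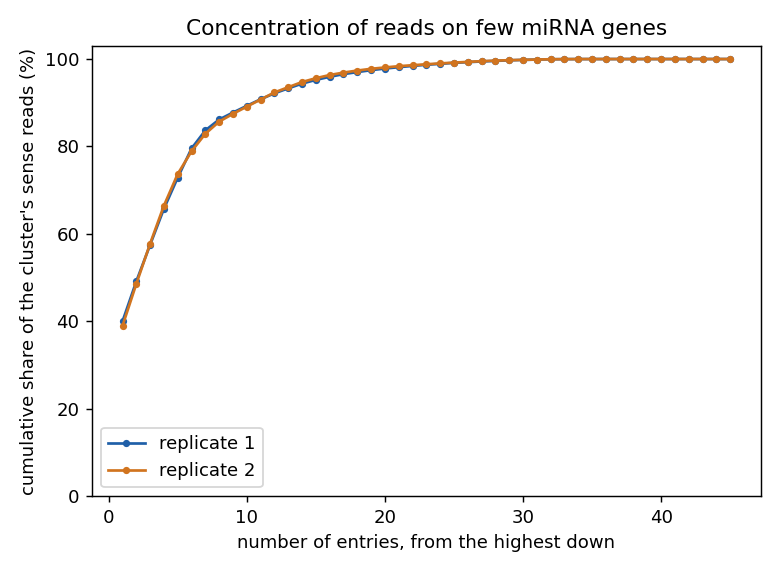
Cumulative share of the members' sense reads (%) against the number of members, taken from the highest down, with 1 line for each replicate. Both lines start near 40% at a single gene and pass 90% at 11 genes.

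Below Mir487b in sense reads came 5 genes in which each overlapped its next neighbour in range over the replicates. Mir411 had 5103 and 6132 CPM in replicates 1 and 2, and Mir382 had 4610 and 6401 CPM. Mir369, whose 3p arm is known with miR-496 and miR-543 to restrain N-cadherin in cortical neurogenesis, had 4667 and 5797 CPM. Mir381 had 3715 and 4825 CPM. Mir541 had 3969 and 3457 CPM, and it was the only gene of these 5 that was lower in replicate 2. Among genes farther apart in this order, Mir411, Mir382 and Mir369 lay wholly above Mir541, and Mir411 lay wholly above Mir381. Beneath them Mir379, the first gene of the main run, had 2307 and 2668 CPM, Mir154 had 1388 and 1845, and Mir134 had 886 and 1186. Each of these 3 was separated from the gene above it, with ranges that did not overlap.

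From Mir134 down to Mir1193, next neighbours again overlapped. Mir370 had 858 and 1080 CPM, and Mir323 had 837 and 1080 CPM. Mir300 had 762 CPM in replicate 1 and 1100 in replicate 2. These complete the 12 members most abundant in sense reads. Farther down, Mir341 had 631 and 792 CPM, Mir376c 476 and 797, and Mir1193 606 and 579. Mir376c and Mir1193 exchanged places between the replicates, since Mir376c was the lower of the pair in replicate 1 and the higher in replicate 2. Of the 34 pairs of neighbours in the order of all detected members, 15 had ranges that did not overlap. The ranks nevertheless agreed closely between the libraries, with a Spearman correlation of 0.992 over the 35 detected members, given as a description.

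Intermediate levels were found for several miRNAs with known roles in neurons. Mir485, known to act at synapses, had 245 and 266 CPM, Mir543 342 and 371, and Mir496a 263 and 310. Mir494 had 206 and 205 CPM, Mir329 174 and 144, and Mir410, the gene that gives the group its downstream name, 120 and 195. All of these lay below Mir369 by more than 10-fold in both libraries. Mir667, Mir668, Mir495 and Mir666 lay between 95.3 and 160 CPM in single libraries. Under a mean of 100 CPM were Mir412, Mir377, Mir679, Mir539, Mir3072, Mir758 and Mir544, with means from 96.6 down to 18.3 CPM.

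The 3 lowest detected members were Mir544, Mir1188 and Mir1197. Mir544 had 116 reads in replicate 1 and 82 in replicate 2, equal to 15.9 and 20.7 CPM. Mir1188, in an intron of Rian, had 50 and 32 reads, equal to 6.85 and 8.07 CPM. Mir1197 had 22 and 11 reads, equal to 3.01 and 2.77 CPM, and its level was close to the detection minimum. No sense read was found in either replicate for 8 members (where the share of all genes was 62.2%). These were the plus-strand genes Mir432, Gm23912, Mir882, Mir654 and Mir453 and the minus-strand entries Gm25750, Gm25252 and Gm24321. As a limit for a count of 0, a floor of 3 reads equals 0.411 CPM in the first library and 0.756 in the second (counting error only). The zeros themselves entered levels and medians as 0 CPM. Gm27379 had 1 read in replicate 1 and none in replicate 2.

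Strand was sharply resolved. The 40 plus-strand members had no read on the opposite strand, against 404787 sense reads in replicate 1 and 262512 in replicate 2, which allows an opposite-strand share of up to 0.000741% and 0.00114%. Minus-strand entries showed the reverse, and their opposite-strand reads lie on plus-strand miRNA genes that were not analysed here through rows of their own. Gm25252, which lies across Mir376a, had 36698 and 23569 opposite-strand reads, or 5025 and 5942 CPM (5483 ± 648, SD, n = 2). The miR-376 group is known for A-to-I editing of its precursors in brain. Gm24321, across Mir409, had 3979 and 3863 CPM on the opposite strand (3921 ± 81.4), with no sense read in either library. These levels are in the range of Mir382, Mir369 and Mir541.

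The other minus-strand entries were lower. Gm25750, across Mir380, had 883 and 1071 CPM on the opposite strand (977 ± 133, SD, n = 2). Mir299b, which pairs with Mir299a on the other strand, had 633 and 566 CPM on the opposite strand (599 ± 47.0), and only 16 and 5 reads on its own. Opposite-strand reads thus made up 99.7% and 99.8% of the reads at Mir299b. Mir3071 alone had its reads on its own strand as tabulated, 2868 and 1932, against 1 and 0 opposite, which gave 392.7 and 487.1 CPM. M21 lists Mir3071 on the minus strand across Mir136, but the tables hold an earlier version of that gene entry, whose strand the sources used here do not give. Reads of miR-3071 and of miR-136 therefore cannot be told apart at this entry. With the opposite-strand reads of the minus-strand entries added to members and total, the cluster's share was 6.57% and 7.72%, a mean of 7.14% ± 0.818 (SD, n = 2).

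Position along the chromosome was considered next. Rian spans chr12:109603940-109661716 and Mirg chr12:109729764-109749460, both on the plus strand in M21. Most members, 27 of 45 (60.0%), lie outside these annotated genes. The 4 members within Rian (Mir341, Mir1188, Gm23912 and Mir370) are intronic, 3 of them were detected, and they gave 2.68% and 2.82% of the members' reads. The 25 members between Rian and Mirg, 19 of them detected, gave 67.1% and 66.7%, a share that included Mir487b. The 14 members in the span of Mirg, 12 of them detected, gave 29.5% and 29.7%. Of these, Mir382, Mir134, Mir668, Mir485, Mir377, Mir412, Mir369, Mir410 and Mir3072 overlap exons of Mirg, whereas Mir453, Mir154, Mir496a and Mir541 are intronic, and Gm24321 is on the other strand. The median level of detected members was 205 CPM between Rian and Mirg and 271 CPM in Mirg. In sense reads, the larger sum between them thus rested on Mir487b and not on a higher typical gene. That holds for sense reads only. Opposite-strand reads at Gm25252, Gm25750 and Mir299b, between Rian and Mirg, and at Gm24321, in Mirg, are not in these sums.

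A dense run of 34 plus-strand members extends from Mir379 to Mir3072, chr12:109709060-109747960. M21 also places Mir299a, Mir380, Mir376b, Mir376a and Mir409 on the plus strand within it, and these are skipped in the gaps and pairs that follow because they had no row of their own. The run covers 38901 nt with a median gap of 644 nt between successive members, and 31 of its members were detected. Successive detected members often had very different levels. Among 30 such pairs the median difference was 2.39 on the log2 scale of CPM, 9 pairs differed more than 10-fold, and 4 lay within 2-fold. Mir1197, at 3.01 and 2.77 CPM, lies 2060 nt after Mir411, at 5103 and 6132 CPM, with Mir299a and Mir380 between them, and 71 nt before Mir323, at 837 and 1080 CPM. Mir412, at 84.8 and 108 CPM, ends 49 nt before Mir369, at 4667 and 5797 CPM. Mir539, at 54.4 and 52.4 CPM, follows Mir487b after 714 nt. In these pairs, picked for their large differences, closeness on the chromosome did not go with a like count. Other close genes were more alike, such as Mir668 and Mir485, 104 nt apart with a log2 difference of 0.99. Levels of members farther apart were not set beside those of neighbours.

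No measured property of the hairpins tracked level closely. Over the 35 detected members, Spearman correlations of mean log2(CPM + 1) were 0.01 with start position, -0.12 with hairpin length, -0.24 with GC content and 0.16 with the folding energy predicted by RNAfold. These are descriptions over genes of a shared domain, counted in the same libraries, and not over independent units.

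Among the listed arms, the closest mature sequences came from hairpins with unlike counts. Arms of Mir299a and Mir299b, which overlap on opposite strands and are nearly the same in sequence, were not set against each other. Over the other 3199 pairs of arms from different hairpins, the closest with reads were miR-379-3p and miR-411-3p, printed above. They differ by U10C and U22C (miR-379-3p base, position from 1 at the 5′ end, miR-411-3p base). Mir411 stood 2.21-fold above Mir379 in replicate 1 and 2.30-fold in replicate 2. Next were miR-300-3p and miR-381-3p, which differ by G4A, U21G and C22U, the first of them inside the seed. Mir381 stood 4.88-fold and 4.39-fold above Mir300. Mir369 stood 3.36-fold and 3.14-fold above Mir154, whose 3p arm is 4 edits from that of Mir369. For miR-543-3p and miR-495-3p, which differ by U6A, U7A, G9A and C10U, Mir543 stood 2.82-fold and 3.15-fold above Mir495. In each of these 4 pairs the same gene was the higher in both replicates. Some less close pairs were nearer in level. Mir496a stood 1.28-fold and 1.51-fold above Mir494, with 6 edits between their 5p arms. Levels of unrelated pairs were not set beside these.

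**Figure D3:**
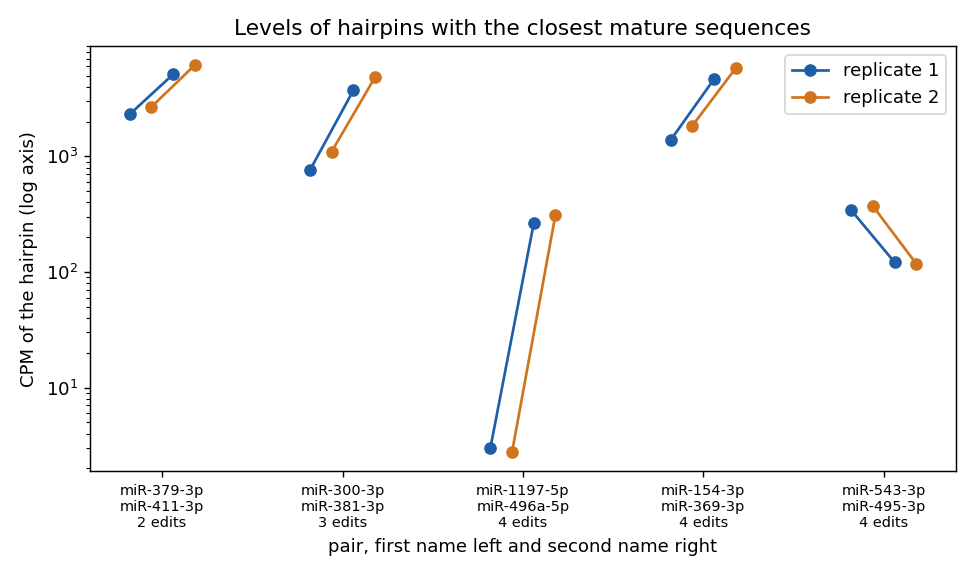
Level of the hairpins (CPM, log axis) that carry the 5 closest pairs of listed mature arms, with lines joining the pair within each replicate. Arms of Mir299a and Mir299b were not set against each other. Slopes are alike in both replicates, from 2.21-fold and 2.30-fold for Mir379 and Mir411 to 87.2-fold and 112-fold for Mir1197 and Mir496a.

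Among the listed arms, shared seeds were uncommon within the cluster, and no seed was shared by 3 or more of its hairpins. A single arm was listed for Mir487b, Mir376c, Mir539 and Mir485, so seeds of their other arms were not compared. The seed AUGUAAC, of miR-379-3p and miR-411-3p, was carried by hairpins with the largest summed level of any seed shared among the listed arms, 8105 ± 983 CPM (SD, n = 2). GGUAGAC, of miR-379-5p and miR-1193-5p, came to 3080 ± 236 CPM, with Mir379 3.81-fold and 4.61-fold above Mir1193. AGGUCAC, of miR-370-5p and miR-1193-3p, came to 1561 ± 137 CPM. AUGUGGG, of miR-299a-3p and miR-299b-3p, came to 601 ± 47.6 CPM, nearly all from the opposite-strand reads at Mir299b. GGUUGUC, of miR-494-5p and miR-410-5p, came to 363 ± 52.4 CPM, with Mir494 1.72-fold above Mir410 in replicate 1 and 1.05-fold in replicate 2. GGUUGAC, of miR-1197-5p and miR-758-5p, came to 44.1 ± 0.631 CPM, mostly from Mir758. These sums are of whole hairpins, so the level of the arm with the shared seed was not measured. Outside the cluster, miR-362-3p has the seed of miR-329-3p, and Mir362 had 122 and 79.4 CPM where Mir329 had 174 and 144. The seed of miR-377-5p is also that of miR-672-5p, and Mir672, at 330 and 383 CPM, was more than 4-fold above Mir377 in each library. The seed of miR-412-3p is that of miR-1983, and Mir1983 had 3268 and 3929 CPM where Mir412 had 84.8 and 108. In all, 10 seeds of listed arms in the interval were shared with miRNAs outside it, and Mir1983 was the most abundant of the outside genes with a count.

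Hairpins of the cluster also share stretches that lie mostly outside the seeds. The stretches were picked after sequences and levels had been seen, and they were searched on the strand of the hairpin only. Shown here are hairpins of 4 abundant genes and of Mir410, with UACUUG and UUCGCUU in capitals. They are from RefSeq, GRCm38.p6, plus strand: Mir487b at chr12:109727333-109727414, Mir382 at chr12:109733771-109733846, Mir154 at chr12:109738433-109738498, Mir369 at chr12:109743418-109743496 and Mir410 at chr12:109743715-109743795.
Mir487b: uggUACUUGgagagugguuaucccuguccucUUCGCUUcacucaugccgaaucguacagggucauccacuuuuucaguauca
Mir382: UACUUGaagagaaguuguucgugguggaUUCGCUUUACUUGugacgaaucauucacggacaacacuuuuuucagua
Mir154: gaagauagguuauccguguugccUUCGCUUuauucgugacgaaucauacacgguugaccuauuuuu
Mir369: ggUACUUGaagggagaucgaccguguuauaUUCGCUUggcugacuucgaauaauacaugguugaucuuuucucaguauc
Mir410: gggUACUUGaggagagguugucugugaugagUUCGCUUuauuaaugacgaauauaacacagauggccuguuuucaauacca
UUCGCUU was present in 10 of 40 member hairpins searched (25%) and in 13 of all 2202 mouse hairpins (0.590%), only 3 of which lay outside the interval. UACUUG was present in 10 of 40 (25%) and in 51 of 2202 (2.32%). In Mir382 a further copy of UACUUG follows UUCGCUU directly. The 10 genes with UUCGCUU were Mir323, Mir329, Mir543, Mir495, Mir487b, Mir382, Mir154, Mir377, Mir369 and Mir410, and they ranged from 77.1 to 24176 CPM. Genes with the same stretch thus covered a large part of the range of levels.

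Sequence shared between genes bears on a few members directly, and on the total used for scaling. Reads that mapped to several places were kept in a class outside genes, and that class held 36.2% and 36.9% of all reads. It was left out of the total, so genes with several copies may be undercounted. The members' shares and CPM thus hold only among reads assigned to genes. An exact stretch of 20 nt was shared by the hairpins of Mir411 and Mir758, and Mir376b shared such stretches with Mir376c and with Mir487b. All 4 members involved were detected. No listed arm of these hairpins lies wholly within a shared stretch, though only a single arm was listed for Mir376c and Mir487b. Reads that fell inside a shared stretch may have been left out, and to that extent these counts are uncertain. How many such reads there were was not measured.

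The replicates were compared with library sizes scaled by TMM, as log2 of replicate 2 over replicate 1. This compares 2 libraries and not conditions. Over the 35 detected members the median was 0.14 (range -0.50 to 0.65), with 24 members above 0 (68.6%), where 49.9% of all 397 detected genes were above 0, and 11 below 0, where 50.1% of all were. By an exact two-sided binomial test with Benjamini-Hochberg adjustment over all 397 genes, at 0.05, 18 members (51.4%) were higher in replicate 2, where the share of all genes was 23.9%. By the same test 5 members (14.3%) were lower, where the share of all genes was 30%. With plain library totals, 19 members were higher and 3 lower, and over all detected genes 32.0% were higher and 22.7% lower, so the balance over all genes turned with the scaling. The members' median level exceeded that of all detected genes, and the test covers counting error only, so small differences passed it. By size, 33 of 35 members stayed within 1.5-fold, 2 were beyond it upward (5.71% against 7.05% of all genes) and none downward (9.57%). The upward share was thus near that of all genes, and the downward share was below it.

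The genes beyond 1.5-fold were Mir376c and Mir410. Mir376c went from 476 to 797 CPM, a log2 ratio of 0.65 (exact binomial test, adjusted p = 1.09e-72). Mir410 went from 120 to 195 CPM, a log2 ratio of 0.61 (exact binomial test, adjusted p = 1e-16). At Mir376a, a relative of Mir376c, the opposite-strand reads of Gm25252 gave a log2 ratio of 0.15. Members called lower were Mir541, Mir668, Mir329, Mir1193 and Mir667. Mir668 had the lowest ratio, from 147 to 111 CPM or -0.50 (exact binomial test, adjusted p = 1.4e-09). With plain library totals in place of TMM, the calls for Mir1193 and Mir667 were lost (exact binomial test, adjusted p = 0.125 and 0.160). Mir541 had a ratio of -0.29. Within Mirg, ratios of both signs were found among intronic members (Mir154 0.32, Mir496a 0.14, Mir541 -0.29) and among exonic ones (Mir382 0.38, Mir668 -0.50). Of the 12 detected members in Mirg 10 were above 0, with a median of 0.20, and between Rian and Mirg 10 of 19 were, with a median of 0.03. No test of the difference between these stretches was made.

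**Figure D4:**
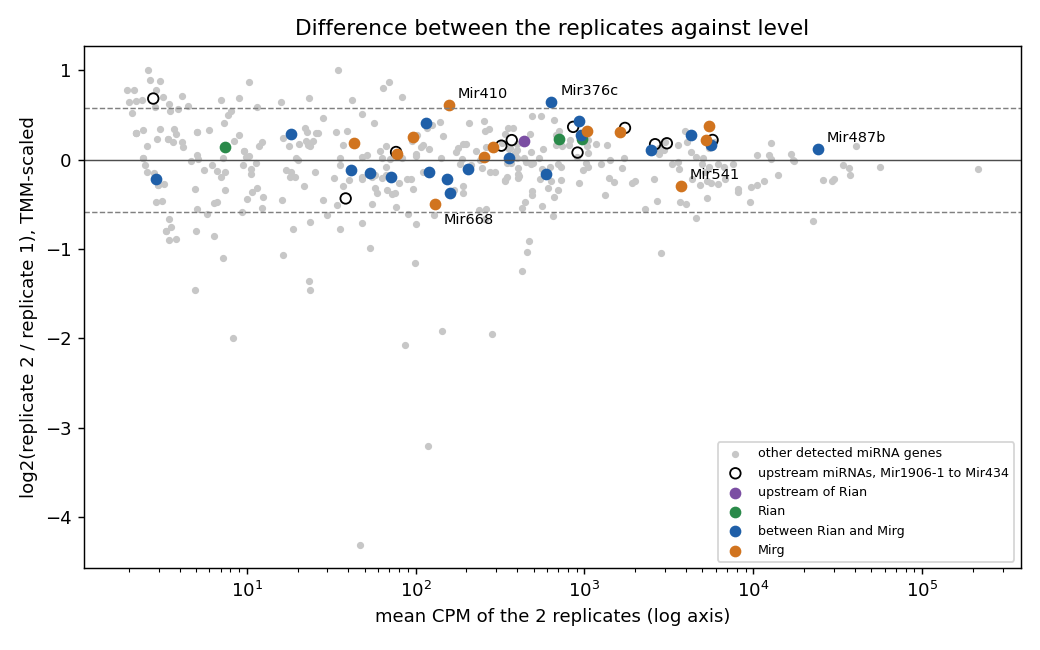
Log2 ratio of replicate 2 to replicate 1 after TMM scaling against mean CPM (log axis) for 397 detected miRNA genes, with members coloured by position and dashed lines at 1.5-fold. Members lie between -0.50 and 0.65, and Mir376c and Mir410 alone among them pass a dashed line.

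The miRNA genes of the same domain upstream of the members, from Mir1906-1 to Mir434, moved alongside. Of these 13 genes, which include Mir127, opposite the paternally expressed Rtl1, 11 were detected. Their share of sense reads was 1.41% in replicate 1 and 1.75% in replicate 2 (1.58% ± 0.241, SD, n = 2). Of the 11, 10 had a ratio above 0, with a median of 0.19. The members had 3.97 times the reads of these genes in replicate 1 and 3.82 times in replicate 2, so both stretches of the domain held larger shares in replicate 2 in nearly fixed proportion.

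Markers of tissue and of other cells also differed between the libraries. Of 10 neural miRNA genes 8 were detected, and their summed level was 36068 CPM in replicate 1 and 41083 in replicate 2, most of it from Mir149 (17015 and 18011 CPM) and Mir137 (11495 and 13936 CPM). The Mir124a genes, which encode the neuronal miR-124 and exist in several copies, lay between 1.51 and 11.6 CPM. Mir9-2 lay at 3.42 and 0.756 CPM, whereas Mir9-3 lay at 514 and 558 CPM. Reads that mapped to several places are not in these counts. Mir124a-3 and Mir9-2 were the neural genes not detected. The sum of 3 vessel genes, all detected, was 32566 and 21781 CPM, and that of 3 red cell genes, all detected, was 486 and 153 CPM. Mir451a, at 447 and 123 CPM, made up most of the red cell sum, and Mir486 was at 9.86 and 10.8 CPM. Of 3 myeloid genes 2 had a row, Mir223 gave 212 and 24.5 CPM and Mir142b was at 0. The sum of 4 mesenchyme and meninges genes, 2 of them detected, was 320 and 69.1 CPM. Of 5 muscle genes 4 had a row, 1 was detected, Mir133a-1 and Mir133a-2 were at 0, and the sum was 23.0 and 30.0 CPM. The summed vessel, red cell, myeloid and mesenchyme levels were thus lower in replicate 2, where the cluster's share was higher, and their part in the result was not tested. In whole tissue, fewer cells of a type and less RNA per cell cannot be told apart.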

How the data were processed

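The authors deposited raw read counts per miRNA gene for the annotated strand, the opposite strand and both together, on assembly mm10 with annotation M4, per the deposited text. The sources used here do not give the aligner, the counter or their settings. Sense counts were scaled to CPM by the sum over genes, and rows for reads outside genes were left out. Symbols and positions were those of GENCODE M21, also on mm10 (1894 of 1973 genes matched), and 14 members had another gene version there. Members and lists were chosen with earlier results of these data known. Genes with at least 10 sense reads in each replicate were called detected. Ratios used TMM factors from edgeR 4.0.16 (0.968 and 1.03), and each detected gene was given an exact two-sided binomial test with Benjamini-Hochberg adjustment over 397 genes. The script was tested on simulated data. With 1 group, no test between conditions was possible. Named were the 12 highest and 3 lowest detected members, ratios beyond 1.5-fold, minus-strand members with over 10 opposite-strand reads and members with no sense read; the text's other genes were picked with their values known. Folding used ViennaRNA 2.7.2. Alternatives were DESeq2 1.42.0 size factors, plain totals, other read minimums, no filter, unstranded counts, other totals, a pseudocount of 0.1 CPM in place of 1 CPM, detected members only and each replicate left out. A share without Mir487b and a share with opposite-strand reads were added after seeing the data.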

Additional observations from a re-analysis of the deposited data

How the results depend on the processing

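The cluster's mean share of sense reads, 6.12%, was 7.79% without the most abundant gene in the total, 2.52% of all reads in the file, 7.07% with unstranded counts, 3.80% without Mir487b and 7.14% with opposite-strand reads of minus-strand members. The last 2 were chosen after seeing the data. With each replicate left out in turn it was 5.58% and 6.67%. The median level of 7.27 was 8.16 over detected members, and 7.18 to 7.21 with a replicate left out. Detection ranged from 32 to 39 members over the alternatives. Members called lower in replicate 2 were 5, 7 with unstranded counts and 3 with plain totals, under which Mir1193 and Mir667 lost their calls and the median log2 ratio was 0.09 for all detected genes and 0.24 for members. With plain totals 32.0% of all detected genes were called higher and 22.7% lower, in place of 23.9% and 30%. Members called higher ranged from 18 to 20. No called member ratio changed sign under the alternatives run. No paired analysis was possible because the series has 1 group. Depth limits values near 10 reads. Which mature arm was read was not measured.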
